A study of Mus musculus with 8 samples.

Results

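Hepatic stellate cells lie between the sinusoidal endothelium and the hepatocytes, where they store retinyl esters in lipid droplets and release growth factors. When the liver is injured they lose these droplets, turn on contractile and filament genes and lay down matrix, which is called activation. The 10 stellate cell markers described here were picked by symbol, as genes that mark quiescent or activated stellate cells, with earlier results of these data known. They were Lrat, Reln, Hgf, Cygb, Des, Vim, Acta2, Tagln, Pdgfrb and Tgfb1. Of these, 9 had a row among the 21532 genes of the table, and Tagln is not analysed here. All 9 passed the filter on low values (a mean normalized count of at least 10 over the 8 mice). A normalized count is the reads of a gene after division by the size factor of its library.

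RNA-Seq libraries were made from the livers of 8 male mice of the db/db strain, 1 library per mouse. These mice carry a leptin receptor mutation that leads to obesity and diabetes. Control was given to 4 of them and AF1 peptide to the other 4, called treated mice below. AF1 peptide is a peptide made from the activation function 1 domain of ERα joined to a TAT sequence that lets it enter cells. Both were given at 5 mg/kg body weight by retro-orbital injection, 2 times per week for 5 weeks, starting at 8 weeks of age. Both groups carried the db/db mutation, and no lean mice are compared here, so the values describe the peptide against control within obese livers. Whole liver holds many cell types, and fewer stellate cells cannot be told apart from less marker RNA in each cell.

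Recovered reads ranged from 23031880 to 45117528 per mouse and did not differ between groups beyond their spread (two-sided exact permutation test, p = 0.686, n = 4 per group). AF1 peptide replicate 1 stood apart from the other treated libraries. A chi-square statistic of reads over genes was 258 to 347 per degree of freedom between it and AF1 peptide replicates 2 to 4, 16.2 to 44.2 among those 3 mice and 43.7 to 113 among control mice. Its 13 mitochondrial protein-coding genes took 20.8% of reads, against 34.3 to 37.8% in AF1 peptide replicates 2 to 4 and 22.4 to 34.3% in control mice. Results for the markers, and for part of the lists, are therefore given with and without this mouse. Other list results are given with all mice only, and some of them also move without it.

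None of the 9 stellate cell markers was called different between treated and control livers (0 of 9, limma, unadjusted p value under 0.05 and a fold change of more than 1.3), where 3.69% of the 15989 genes tested were called. The count at an unadjusted p value under 0.05 without the fold threshold was also 0 of 9, against 6.19% of all genes tested. Acta2 had the widest difference, 1.46-fold higher under AF1 peptide on the log2(normalized count + 1) scale with a 95% confidence interval from 0.911 to 2.33. Of the 9 markers, 5 had a higher and 4 a lower mean log2 value under AF1 peptide, or 3 higher and 6 lower after rescaling to equal library totals. The median log2 fold change was 0.02 over the 9 markers and -0.01 over all genes tested. In no marker did the 4 control and the 4 treated mice fall apart without overlap (0 of 9), which happened in 3.90% of all genes tested. limma's Benjamini-Hochberg adjusted p values of the 9 markers lay between 0.766 and 0.994, and the smallest over all genes tested was 0.763.

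**Figure D1:**
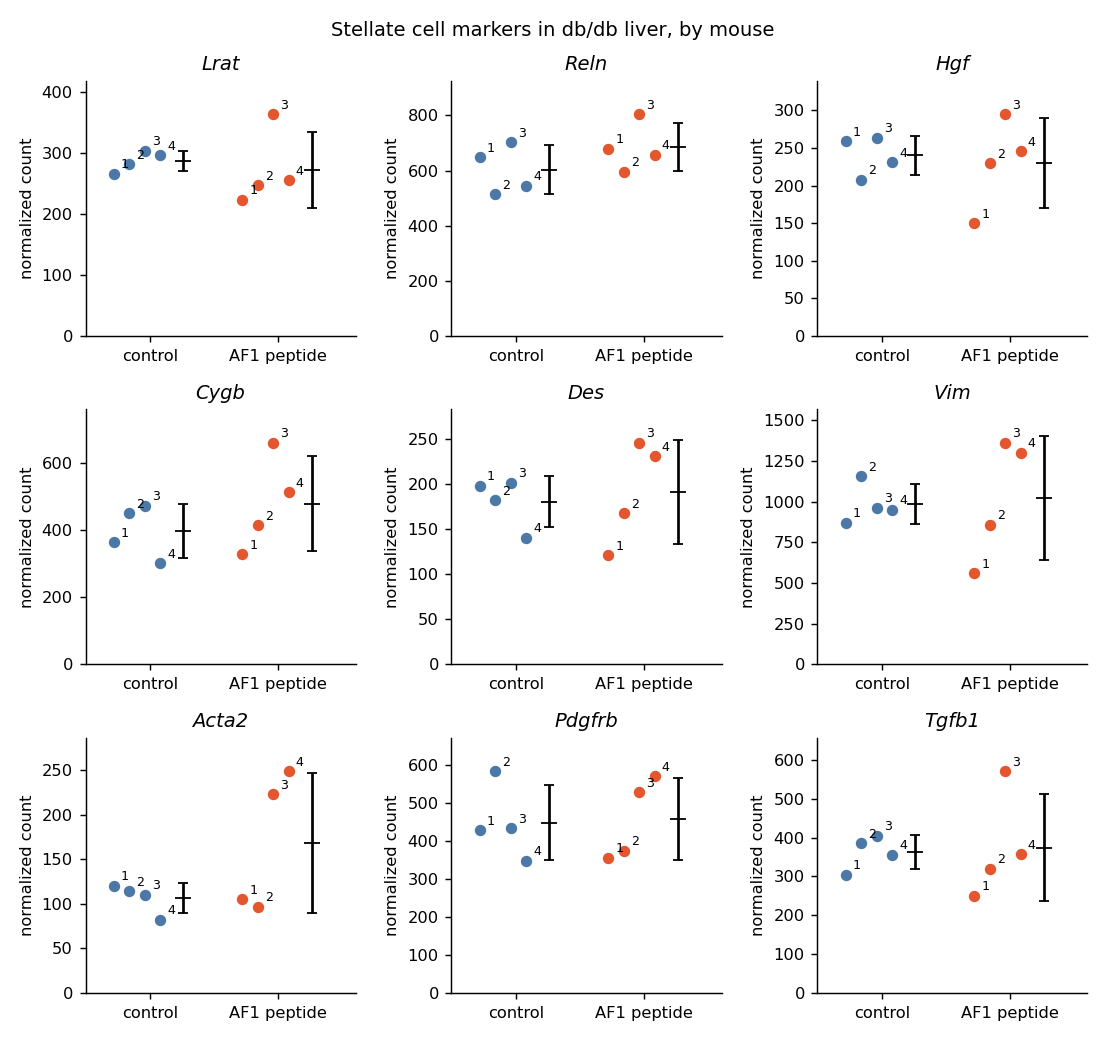
Normalized count (y axis, linear, from 0) of each of the 9 stellate cell markers in each mouse, with control mice in blue and treated mice in orange, replicate numbers beside the points, and the mean ± SD of the 4 mice as a black bar. The groups overlap in every panel, AF1 peptide replicate 3 is the highest mouse in 7 of the 9 panels, and AF1 peptide replicate 1 is the lowest in 5.

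Lrat and Reln mark the quiescent, retinoid-storing cell. Lrat encodes lecithin retinol acyltransferase, which makes the stored retinyl esters. Its normalized counts were 266, 282, 304 and 297 in control replicates 1 to 4 and 223, 247, 363 and 255 in AF1 peptide replicates 1 to 4. Here 3 of the 4 treated mice lay below every control mouse and replicate 3 lay above every control mouse. The log2 fold change was -0.10 (SE 0.15, 95% CI -0.44 to 0.24, limma Benjamini-Hochberg adjusted p = 0.901). Reln encodes reelin, a secreted glycoprotein that in liver is known as a stellate cell product. Its counts were 648, 514, 704 and 545 in control mice and 679, 595, 804 and 658 in treated mice. Reln was the only marker of the 9 whose log2 values did not spread more widely in treated than in control mice (SD 0.18 against 0.21), and its log2 fold change was 0.19 (SE 0.13, 95% CI -0.11 to 0.48, limma Benjamini-Hochberg adjusted p = 0.792).

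Hgf and Cygb are the other members linked to the resting cell. Hgf encodes hepatocyte growth factor, the ligand of the receptor MET on hepatocytes. The control values of Hgf were 259, 208, 264 and 231 normalized counts, and the AF1 peptide values were 150.2, 230.1, 295 and 246. AF1 peptide replicate 1 lay below and replicate 3 above every control mouse, and the log2 fold change was -0.10 (SE 0.19, 95% CI -0.52 to 0.33, limma Benjamini-Hochberg adjusted p = 0.929). Cygb encodes cytoglobin, a globin that in liver is known from stellate cells. Cygb was counted at 364, 449, 472 and 301 in control mice and at 328, 415, 659 and 512 in treated mice. Replicates 3 and 4 of the AF1 peptide group were above every control mouse while replicates 1 and 2 were within the control range, with a log2 fold change of 0.24 (SE 0.22, 95% CI -0.23 to 0.72, limma Benjamini-Hochberg adjusted p = 0.826).

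Des and Vim encode the intermediate filament proteins desmin and vimentin. Desmin is a filament of muscle and of rodent stellate cells, and vimentin is shared by mesenchymal, endothelial and blood cells. The counts of Des were 199, 182, 202 and 141 in control mice and 121, 168, 246 and 231 in treated mice, with 1 treated mouse below and 2 above every control mouse. The counts of Vim were 871, 1155, 963 and 949.7 in control mice and 559, 858, 1361 and 1300 in treated mice, with 2 mice below and 2 above all control mice. AF1 peptide replicates 1 and 2 were low and replicates 3 and 4 high in both genes. The log2 fold change was 0.04 for Des (SE 0.22, limma Benjamini-Hochberg adjusted p = 0.977) and -0.03 for Vim (SE 0.25, limma Benjamini-Hochberg adjusted p = 0.985). For Vim the mean of the normalized counts moved the other way from the log2 value, from 985 (SD 121, n = 4) under control to 1020 (SD 380.1, n = 4) under AF1 peptide.

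Acta2 encodes smooth muscle α-actin, the contractile actin of activated stellate cells and of vascular smooth muscle. Its normalized counts were 120.3, 114, 110.3 and 82.1 in control mice and 105, 96.8, 223 and 249 in treated mice. Replicates 3 and 4 of the AF1 peptide group stood above every control mouse, and replicates 1 and 2 lay within the control range. The mean was 107 ± 16.9 (SD, n = 4) under control and 169 ± 78.7 (SD, n = 4) under AF1 peptide, with a log2 fold change of 0.54 (SE 0.31, 95% CI -0.13 to 1.22, limma Benjamini-Hochberg adjusted p = 0.766). A two-sided exact permutation test of the 8 mice gave p = 0.286, and a design of 4 against 4 mice cannot go below 0.0286. Between 53 and 271 reads stood behind each of these values, the fewest of any of the 9 markers. With edgeR on the recovered reads, Acta2 had a log2 fold change of 0.68 (Benjamini-Hochberg adjusted p = 0.751), and with DESeq2 0.67 (adjusted p = 0.738). Both tests gave Acta2 an unadjusted p value under 0.05 and so called 1 of the 9 markers each, where edgeR called 3.92% and DESeq2 3.88% of all genes.

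The contractile genes of smooth muscle and activated stellate cells are known to carry CArG boxes, which bind serum response factor (SRF), so promoters of the markers are shown where a box was found. RefSeq promoter sequences of 300 bases (250 before to 50 after a gene's start, GRCm38.p6) were matched by symbol for 7 of the 9 markers, all but Pdgfrb and Cygb. The pattern searched was CC, then 6 letters that are each A or T, then GG, with at most 1 of those 6 letters being G or C, and since it reads alike on both strands each position was counted once. It stood at 2 positions in Acta2 and at 1 in Lrat, and 9.98% of 32851 such mouse promoters hold it. The 10 letters of the match are in capitals within stretches of 30 bases, written 5′ to 3′ on the strand of the gene, which is the minus strand for both genes.
Acta2, chr19:34255438-34255467, match 84 to 75 bases before the start: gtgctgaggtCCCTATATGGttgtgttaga
Acta2, chr19:34255388-34255417, match 34 to 25 bases before the start: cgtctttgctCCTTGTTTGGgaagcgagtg
Lrat, chr3:82904178-82904207, match 223 to 214 bases before the start: cttctcaccgCCAAGAAAGGtgctccattc
Each of the 3 matches held 1 G or C among its 6 inner letters. A match is a description of the letters, and binding was not measured here. Between them, Acta2 and Lrat had log2 fold changes of opposite sign (0.54 and -0.10).

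Pdgfrb and Tgfb1 belong to the signals that drive activation. Pdgfrb encodes the PDGF receptor β, through which stellate cells and pericytes respond to platelet-derived growth factor. The 4 control mice had 429, 584, 434 and 348 normalized counts and the 4 treated mice 357, 374, 529 and 571. Every treated mouse lay within the control range, and the log2 fold change was 0.02 (SE 0.19, 95% CI -0.41 to 0.45, limma Benjamini-Hochberg adjusted p = 0.985). Tgfb1 encodes transforming growth factor β1, a cytokine made by macrophages, platelets and other cells as well as by stellate cells. The values of Tgfb1 were 304, 385, 404 and 356 in control mice and 250.1, 319.6, 571 and 357 in treated mice. Replicate 1 of the AF1 peptide group was below and replicate 3 above every control mouse, with a log2 fold change of -0.01 (SE 0.22, 95% CI -0.50 to 0.47, limma Benjamini-Hochberg adjusted p = 0.994). The 95% confidence intervals of Lrat, Reln, Pdgfrb and Tgfb1 all held 0, and exact permutation p values of the 9 markers ranged from 0.229 for Reln to 0.971 for Vim and Tgfb1.

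**Figure D2:**
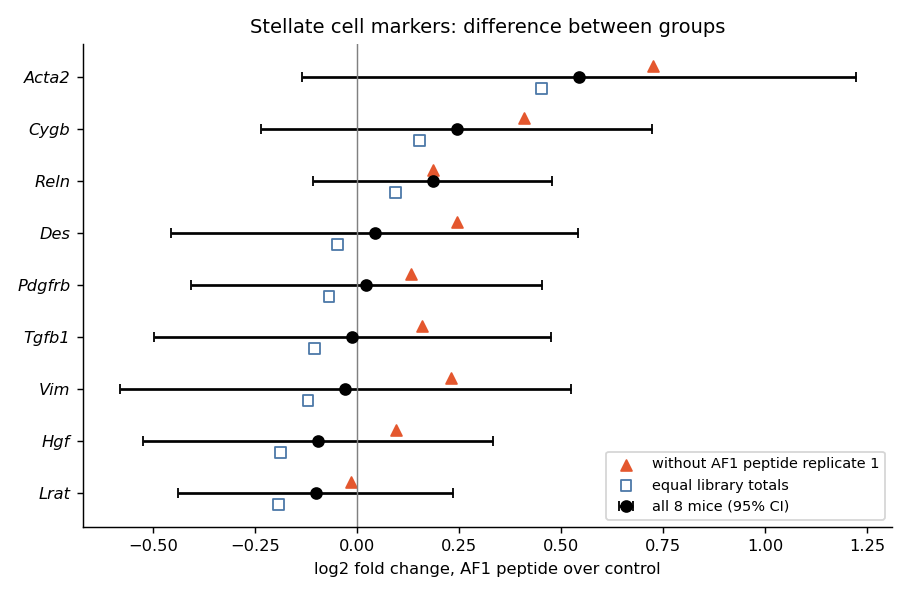
Log2 fold change of AF1 peptide over control for the 9 stellate cell markers (x axis, log2 scale), with the 95% confidence interval over all 8 mice in black, the value without AF1 peptide replicate 1 as an orange triangle and the value after rescaling to equal library totals as an open blue square. All 9 intervals hold 0, and the triangles of Vim, Tgfb1 and Hgf and the squares of Des and Pdgfrb lie on the other side of 0 from their black points.

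Without AF1 peptide replicate 1, 8 of the 9 markers had a higher and 1 (Lrat) a lower mean log2 value in treated mice, and the median log2 fold change of the markers was 0.19. limma then called 2 of the 9, where it called 5.90% of all genes. Acta2 had a log2 fold change of 0.73 (limma Benjamini-Hochberg adjusted p = 0.484) and Cygb one of 0.41 (limma Benjamini-Hochberg adjusted p = 0.495). Without AF1 peptide replicate 2, Acta2 was the 1 marker called (log2 fold change 0.77, limma Benjamini-Hochberg adjusted p = 0.851), where 3.43% of all genes were. Without AF1 peptide replicate 3 or replicate 4 the log2 fold change of Acta2 was 0.37 or 0.32, below the value over all 8 mice.

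The mice differed from each other in most of the markers at once. The mean log2(normalized count + 1) over the 9 markers was 8.36, 8.44, 8.49 and 8.19 in control replicates 1 to 4 and 8.01, 8.26, 8.90 and 8.68 in AF1 peptide replicates 1 to 4, so that the lowest and the 2 highest mice were all treated. AF1 peptide replicate 1 was the lowest of the 8 mice in 5 of 9 markers, against 23.4% of all genes tested. AF1 peptide replicate 3 was the highest in 7 of 9, against 15.5% of all genes tested. Summed endothelial markers, described below, were also highest in this mouse (10486, against 8321 to 9341 under control). The endothelial gene Stab1 made up 3803 of that sum, against 2404 to 2742 under control. Summed macrophage markers were not highest in this mouse (7371, against 6179 to 7732 under control). The SD of the log2 values was larger in treated than in control mice in 8 of 9 markers, against 67.6% of all genes tested. Among treated mice it was widest in Acta2, at 0.71 against 0.25 in control mice, followed by Vim, at 0.60 against 0.17. Among control mice it was widest in Pdgfrb, at 0.31, and Cygb, at 0.30.

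**Figure D3:**
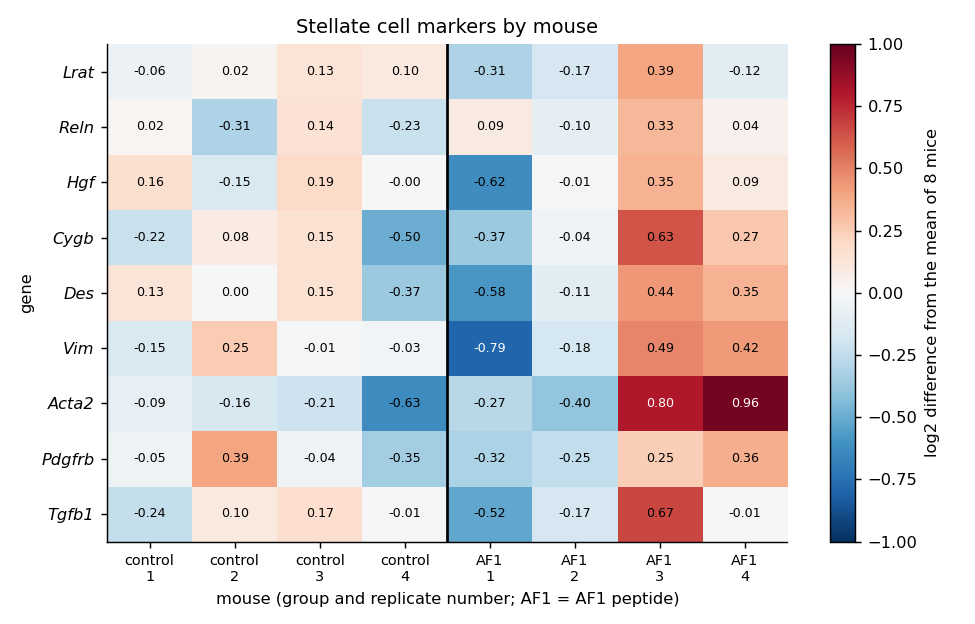
Log2 difference of each mouse (columns, 4 control mice left of the line and 4 treated mice right of it) from the mean of the 8 mice, for the 9 stellate cell markers (rows), with red for higher and blue for lower values. AF1 peptide replicate 3 is red in all 9 rows, and AF1 peptide replicate 1 is blue in all rows but Reln.

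Markers of other cell types placed AF1 peptide replicate 1 differently from list to list. Of 10 macrophage markers, 9 were below every control mouse in it, and their summed normalized counts were 2813 in this mouse, 6714 to 7371 in the other 3 treated mice and 6179 to 7732 under control. Of 12 portal fibroblast and mesothelial markers, 9 lay below and 2 above every control mouse, with sums of 435 in that mouse, 732 to 1130.5 in the other 3 and 726 to 1034 under control. The cholangiocyte sum of 804 (1193 to 1799 under control) came from 1 gene, since Spp1 (osteopontin) made up 667 of it and the other 5 of the 6 genes lay within their control ranges. Of 10 endothelial markers, 5 were below and 2 above every control mouse, the latter being Stab1 at 2879 and Stab2 at 1954. Hepatocyte markers went both ways, with 3 of 8 below every control mouse, Alb among them, and 4 (Serpina1c, Ass1, Cps1 and Tat) above every other mouse. Their sum of 1953000 (2474000 to 2628000 under control) was mostly Alb, at 1224000. Smooth muscle markers summed to 3650 in this mouse, within the control range of 3594 to 3958, but Mylk alone made up 3145 of it. Of those 8 genes, 3 lay above every control mouse and 0 below. Platelet markers summed to 342, above the control range of 265 to 277, of which Itga2b made up 296. Of the 5 platelet genes, 1 lay above and 3 below every control mouse. Listed genes at 0 in at least 1 mouse were Cftr among the cholangiocyte markers, Upk3b and Clec3b among the portal fibroblast and mesothelial markers, and none among the macrophage, endothelial and hepatocyte markers. Their part in the stellate cell marker values was not tested.

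The log2 values of the markers were positively correlated with each other across the 8 mice. All 36 pairs had a positive Pearson's r, with a median of 0.681 and a range from 0.0853 (Vim with Reln) to 0.940. The highest was Lrat with Tgfb1 (r = 0.940, permutation p = 0.00169, Benjamini-Hochberg adjusted p = 0.0607 over 36 pairs), with Spearman's rho of 0.833 (permutation p = 0.0154, adjusted p = 0.0923). Without AF1 peptide replicates 1 and 3, the 2 mice farthest from the median of Lrat, r was 0.690. Next came Des with Cygb (r = 0.868, permutation p = 0.00548, adjusted p = 0.0739, and rho = 0.905, permutation p = 0.00456, adjusted p = 0.0923), with r = 0.765 without its 2 farthest mice. No pair passed an adjusted p value of 0.05 (0 of 36). The relations of Lrat with Hgf and Cygb rested on those same mice, since r went from 0.756 to 0.0896 for Hgf and from 0.589 to -0.258 for Cygb when AF1 peptide replicates 1 and 3 were left out. Without AF1 peptide replicate 3 alone, 31 of 36 pairs stayed positive and the median r was 0.558. Taken as deviations from the group means, the median r was 0.739 and 8 of 36 pairs passed, although such deviations sum to 0 within a group and are not fully independent. All pairs share their libraries and size factors, which can move genes together.

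The genes whose log2 values followed each marker most closely over the 8 mice, among all genes tested, were named by Pearson's r. They were Fkbp10 for Acta2 (r = 0.978), Serpinh1 for Des (0.979), Nucb2 for Vim (0.977), 2310034O05Rik for Lrat (0.979), Gm38782 for Reln (0.975), A4galt for Pdgfrb (0.970), Smyd2 for Cygb (0.973), Rcsd1 for Hgf (0.975) and Slc12a4 for Tgfb1 (0.987). None of these 9 nearest genes was itself a marker. With 8 mice and 15989 genes, values of this size are a description of these libraries.

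The balance between activated and quiescent markers was described per mouse as a difference of mean log2 values. It was the mean of Acta2, Vim, Pdgfrb and Tgfb1 minus that of Lrat, Reln, Hgf, Cygb and Des. Des was counted as quiescent by choice, although filament genes are turned on in activation. This balance was 0.11, 0.46, 0.07 and 0.19 in control mice and 0.13, 0.08, 0.37 and 0.55 in treated mice. The group means were 0.21 ± 0.18 and 0.28 ± 0.22 (SD, n = 4 each), a difference of 0.08 that was smaller than either SD. The 2 groups overlapped, with 1 treated mouse above every control mouse.

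**Figure D4:**
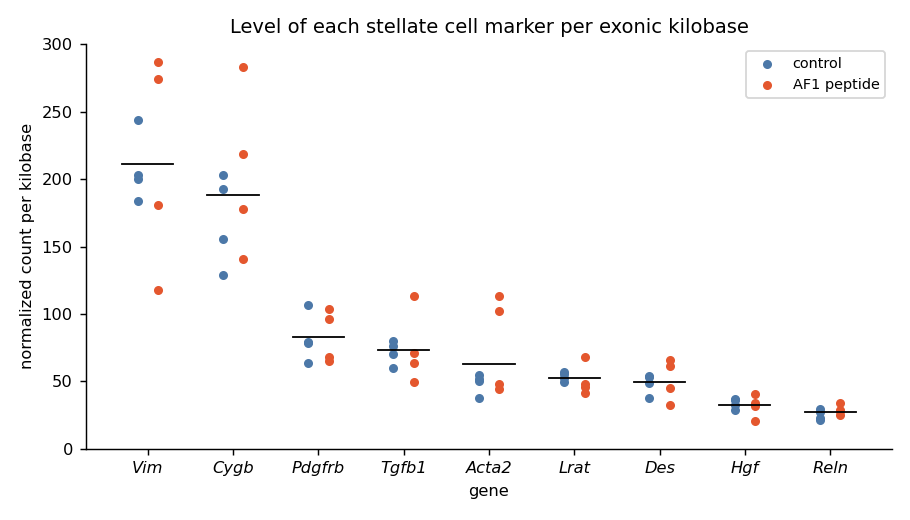
Normalized count per kilobase of exonic sequence (y axis, linear, from 0) of the 9 stellate cell markers in control mice (blue) and treated mice (orange), with the mean of the 8 mice as a line. Vim and Cygb have the highest means, and a gap that no mouse crosses lies only between Cygb and Pdgfrb.

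To compare levels between markers, normalized counts were divided by each gene's exonic length. Over the 8 mice the mean level per kilobase was 211 ± 55.2 (SD, n = 8) for Vim and 188 ± 49.3 for Cygb. It was 82.7 ± 17.5 for Pdgfrb, 73.1 ± 18.9 for Tgfb1, 62.7 ± 28.3 for Acta2, 52.2 ± 8.03 for Lrat and 49.6 ± 11.3 for Des. Hgf, at 32.8 ± 6.01, and Reln, at 27.1 ± 3.89, were lowest per kilobase, although Reln had the second highest normalized count before division, as its exons span 23738 bases. Cygb was higher than Pdgfrb in 8 of 8 mice with ranges apart, whereas the ranges of every other pair of neighbours in this order overlapped. Acta2 lay above Lrat in only 4 of 8 mice, and Pdgfrb above Tgfb1 in 5 of 8. The markers lay at the 29.3rd to 73.2nd percentile of 14778 genes with a length, and Alb, the hepatocyte product albumin, had a level per kilobase of 751000 ± 113000. All 9 markers were thus detected in every mouse, at a small fraction of the hepatocyte signal.

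Other genes of the stellate cell were described from hand-written lists. Of 20 other genes of stellate cell identity, all tested, 7 had a higher and 13 a lower mean log2 value and 1 was called lower, against 1.90% of all genes called lower. It was Gfap, the filament protein that marks stellate cells in rodent liver, with normalized counts of 19.8, 11.8, 17.3 and 18.4 in control mice and 7.46, 5.48, 11.5 and 6.43 in treated mice. All 4 treated mice lay below every control mouse, although 11.8 under control and 11.5 under AF1 peptide were close. Groups did not overlap in 3.90% of all genes tested. The log2 fold change of Gfap was -1.05 (SE 0.33, limma Benjamini-Hochberg adjusted p = 0.763), and its values rest on 3 to 24 reads per mouse. With AF1 peptide replicate 1 left out, 4 genes of this list were called, Gfap, Steap4 and Hhip lower (3.04% of all genes) and Hand2 higher (2.86% of all genes), with 6 genes higher and 14 lower. The last 3 names were chosen after their values were seen, and their log2 fold changes without and with that mouse were -0.52 and -0.31 for Steap4, -1.02 and -0.79 for Hhip, and 0.39 and 0.28 for Hand2. Of 20 other activation and contractile genes, 18 were tested, 10 were higher, 8 lower and 0 called. Cald1, the actin-binding protein caldesmon, had the smallest p value among them (log2 fold change -0.22, limma Benjamini-Hochberg adjusted p = 0.763) and did not pass the fold threshold. Its unadjusted p value was under 0.05 with all mice, but not without AF1 peptide replicate 1. When AF1 peptide replicate 1 was left out, 12 of the 18 were higher and 6 lower, the median log2 fold change moved from 0.05 to 0.28, and 1 gene was called higher, Tpm2 (β-tropomyosin), named after its values were seen (log2 fold change 0.54, and 0.34 with all mice).

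Of the genes tested in the pathways of the signalling members, 1 was called, Pdgfc, where 3.69% of all genes were. In TGF-β signalling, 7 of 21 tested genes were higher, 14 lower and 0 called, with 0 at an unadjusted limma p value under 0.05, and without AF1 peptide replicate 1 the counts were 7 higher, 14 lower and 1 called. In PDGF signalling, 1 of 5 tested genes was called lower. It was Pdgfc, a PDGF ligand, with 28.02, 52.2, 42.2 and 30.2 normalized counts in control and 9.33, 32.9, 12.4 and 30.3 in treated mice. The groups overlapped, and its log2 fold change of -0.96 (limma Benjamini-Hochberg adjusted p = 0.763) was -0.65 without AF1 peptide replicate 1 and -0.77 without replicate 3, both no longer called. The call of Pdgfc was also lost without control replicate 2 (log2 fold change -0.79), 3 (-0.89) or 4 (-1.05). In HGF signalling, 6 of 8 genes were higher, 2 lower and 0 called, and Gab1, a docking protein downstream of MET, had a log2 fold change of 0.30 (limma Benjamini-Hochberg adjusted p = 0.763). Gab1 did not pass the fold threshold, although its unadjusted p value was under 0.05. Without AF1 peptide replicate 1, 0 of the 8 genes, Gab1 included, had an unadjusted limma p value under 0.05.

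The remaining lists follow Lrat, Reln, Acta2 and the filaments. Of 14 tested genes of retinoid storage and metabolism, 4 were higher, 10 lower and 0 called, and Dgat1, which can also esterify retinol, had a log2 fold change of 0.27 (limma Benjamini-Hochberg adjusted p = 0.763). Dgat1 did not pass the fold threshold, although its unadjusted p value was under 0.05 (6.19% of all genes tested). Without AF1 peptide replicate 1, 6 of the 14 genes were higher and 8 lower. In that fit 0 of them, Dgat1 included, had an unadjusted limma p value under 0.05. The groups of Dgat1 did not overlap, at 846 to 990.5 in control and 1013 to 1376 in treated mice (3.90% of all genes tested). Both tested genes of reelin signalling were lower and 0 were called, with Vldlr, a reelin receptor, at a log2 fold change of -0.12. Without AF1 peptide replicate 1, 1 of these was higher and 1 lower. Of 6 SRF and myocardin cofactor genes, 1 was higher, 5 lower and 0 called, with Wwtr1 (TAZ) at -0.27, and Myocd was at 0 in at least 1 mouse. Of 7 intermediate filament partners, 4 were higher, 3 lower and 0 called, with Nes (nestin) at 0.49. None of these last 3 genes had an unadjusted limma p value under 0.05.

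Since Acta2 is also a smooth muscle gene, smooth muscle markers were counted beside it. Of 8 listed, 4 passed the filter, all 4 had a higher mean log2 value under AF1 peptide, and 1 was called higher, against 1.79% of all genes called higher. Myh11, the smooth muscle myosin heavy chain, had 114, 122, 102 and 107 normalized counts in control mice and 172, 142, 200.2 and 179 in treated mice. In Myh11 every treated mouse was thus above every control mouse (groups did not overlap in 3.90% of all genes tested). Its log2 fold change was 0.63 (SE 0.14, 95% CI 0.31 to 0.94, limma Benjamini-Hochberg adjusted p = 0.763), and it was 0.63 without AF1 peptide replicate 1. Unlike Acta2, Myh11 was above the control range in AF1 peptide replicates 1 and 2 as well, though the difference between the 2 genes was not tested. The summed smooth muscle markers were 3594 to 3958 in control and 3650 to 4766 in treated mice. Most of that sum was Mylk, at 3118 to 3491 in control and 3145 to 4174 in treated mice. The part of the smooth muscle markers in the Acta2 values was not tested.

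**Figure D5:**
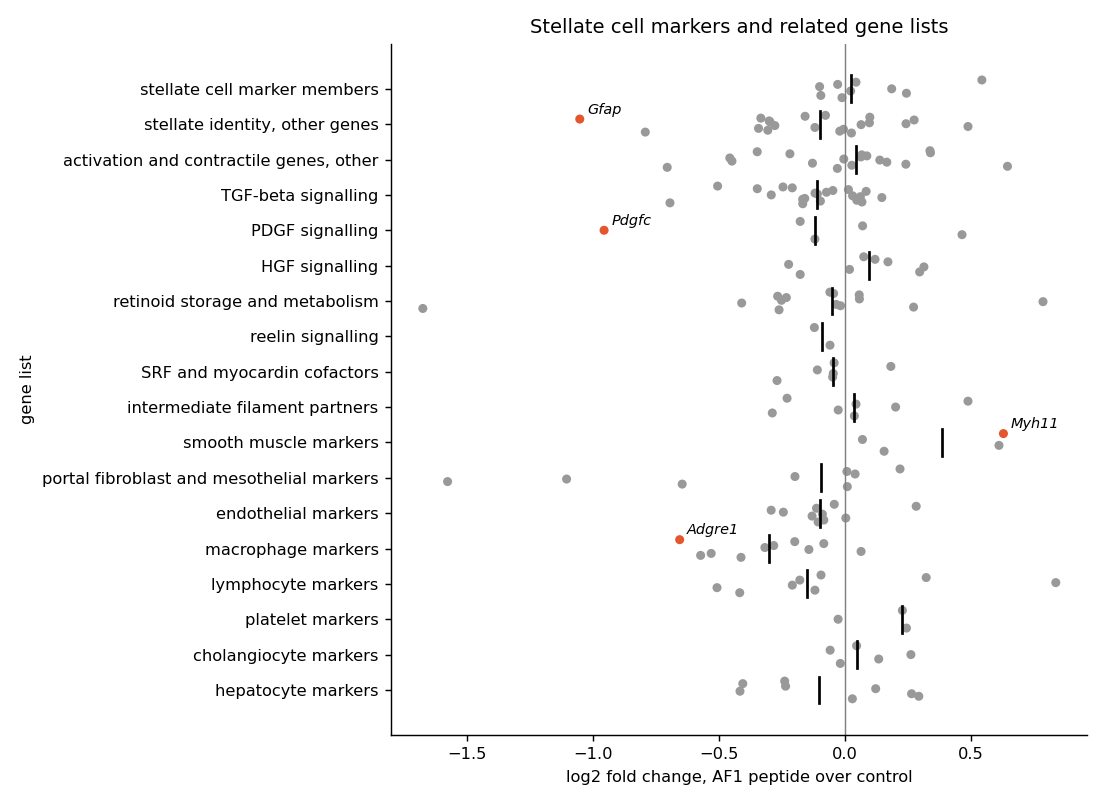
Log2 fold change of AF1 peptide over control (x axis) of every tested gene in the stellate cell marker list and 17 related lists (rows), with the list's median as a black line and called genes in orange with their names. The 9 stellate cell markers spread around 0, and the 4 called genes are Gfap, Pdgfc and Adgre1 on the lower side and Myh11 on the higher side.

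Among markers of the other cell types of the liver, 9 of 10 macrophage markers had a lower mean log2 value (median log2 fold change -0.30), against 51.8% of all genes tested, and 1 was called lower, against 1.90% of all genes. It was Adgre1, which encodes the macrophage surface protein F4/80, at 61.0, 81.7, 45.4 and 85.4 normalized counts in control and 27.1, 45.7, 50.2 and 48.7 in treated mice (log2 fold change -0.66, limma Benjamini-Hochberg adjusted p = 0.763). Without AF1 peptide replicate 1, 5 of the 10 macrophage markers were higher and 5 lower, 0 were called and the log2 fold change of Adgre1 was -0.45. Adgre1 also lost its call without control replicate 2 (log2 fold change -0.56) or control replicate 4 (-0.54). No gene was called among 8 portal fibroblast and mesothelial, 10 endothelial, 8 lymphocyte, 3 platelet, 5 cholangiocyte and 8 hepatocyte markers tested. Leaving out AF1 peptide replicate 1, all 8 hepatocyte markers had a lower mean log2 value (median log2 fold change -0.22) and 1 was called lower, Tat, named after its values were seen (log2 fold change -0.74, and 0.03 with all mice). All 5 cholangiocyte markers then had a higher mean log2 value (median 0.28) and 0 were called. Of the 10 endothelial markers, 2 had a higher and 8 a lower mean log2 value (median log2 fold change -0.10). Without AF1 peptide replicate 1 these were 5 higher and 5 lower (median 0.02). Stab1, an endothelial scavenger receptor, was among the higher ones with all mice. It had a log2 fold change of 0.28 (limma Benjamini-Hochberg adjusted p = 0.763), under the fold threshold. Its unadjusted p value was under 0.05. All 4 treated mice (2826 to 3803) lay above every control mouse (2404 to 2742), and groups did not overlap in 3.90% of all genes tested. The genes with the smallest p value in the other 5 lists were Entpd2 (log2 fold change -0.65), Cd8a (0.84), Itga2b (0.24), Epcam (0.26) and Apoa1 (-0.41), and limma's unadjusted p value was not under 0.05 for any of them.

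Reads of a few markers may be shared with other genes. In the GRCm38 annotation, exons of Cygb overlap Prcd on the opposite strand over 8.62% of their length, Des overlaps Gm15179 over 5.86% and Reln overlaps Gm10475 over 1.04%, also on the opposite strand, and whether strand was used in counting is not given in the sources used here. Hgf overlaps Gm43489 on the same strand over 6.74%, and 6.02% of its 50-base words occur in that annotation's transcripts of another gene. In Acta2, whose actin paralogs are similar, 0.326% of the 50-base words were shared with other genes, as were 0.151% in Reln and 0.278% in Tgfb1, and in Lrat, Des, Vim, Pdgfrb and Cygb none were.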

How the data were processed

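Liver RNA-Seq of 8 db/db mice was used, with groups and replicate numbers taken from the sample labels. Per the authors' methods, TrimGalore 0.6.7 removed adapters, HISAT2 2.2.1 mapped the reads, SAMtools 1.17 sorted the alignments and GenomicAlignments summed reads over genes. The deposited values are normalized counts, used here as a signal of each gene in each mouse. The submitters' processing notes name mm39. The annotation, the use of strand and the normalization tool are not given in the sources used here. All 172256 values were whole reads (within 0.05 of a read) divided by 1 size factor per library, 0.547 to 1.21, equal to median-of-ratios factors. Replicates were separate mice, so SDs, intervals and p values rest on the spread between mice.

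limma 3.58.1 (R 4.3.3, with an intensity trend) compared log2(normalized count + 1) between groups for 15989 genes whose mean was at least 10, and p values were adjusted by Benjamini-Hochberg over all of them. On this scale the fold changes of weakly expressed genes are understated. Genes were called where limma's unadjusted p value was under 0.05 and the fold change over 1.3. Exact permutation tests used Python 3.11.15 with scipy 1.17.1. The fits were tested on simulated data. Alternatives changed the pseudocount (0.5 or 5), the filter, the scaling (TMM, equal totals), limma's trend and moderation, the fold threshold and the mice (each left out once), added the replicate number as a block, or used recovered reads in edgeR 4.0.16 or DESeq2 1.42.0.

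The markers, the lists and the tests were chosen with earlier results of these data known. Named were all markers, up to 3 called genes or otherwise the gene of smallest p value per list, the gene nearest each marker, and Alb. The gene that this rule names in 1 list is not reported here. Exonic lengths, overlaps and shared words came from a GRCm38 annotation (GENCODE M21) and promoters from RefSeq GRCm38.p6, since no mm39 reference was used here; no coordinate was converted. No column was left out.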

Additional observations from a re-analysis of the deposited data

Results flagged for a closer look

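In 54 groups of 4 mice (the markers, the genes named from the lists and summary measures), the highest or lowest mouse was compared with the rest by Dixon's ratio of its gap to the range, at the 95% critical value for 4 mice. Chance flags about 1 in 20 groups, or 2.7 of 54, and 3 passed. No stellate cell marker was among them. Entpd2, which marks portal fibroblasts, stood apart in both groups: control replicate 2 was highest at 301 normalized counts against 196 to 211 in the other control mice (ratio 0.861), and AF1 peptide replicate 1 was lowest at 62.5 against 181 to 204 (ratio 0.835). Stab1 was highest in AF1 peptide replicate 3, at 3803 against 2826 to 2898 in AF1 peptide replicates 1, 2 and 4 (ratio 0.926).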

How the results depend on the processing

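In none of the markers was the Benjamini-Hochberg adjusted p value under 0.05 in limma, edgeR or DESeq2 under any alternative run. The count of markers called was 0 with all 8 mice in limma, 1 with edgeR, 1 with DESeq2 and 0 to 2 with 1 mouse left out (2 without AF1 peptide replicate 1, 1 without AF1 peptide replicate 2). Of the 20 alternatives of the fit, some leave a log2 fold change as it is by construction. They are changes of the filter, of limma's trend or moderation, the replicate block and the exact permutation test. Under all of the others, Lrat, Reln, Cygb and Acta2 kept their direction. Their log2 fold changes with 1 mouse left out ranged from -0.25 to -0.01, 0.10 to 0.26, 0.07 to 0.41 and 0.32 to 0.77. Values near 0 changed sign. With equal totals, which moved the median of all genes from -0.0083 to -0.0987, Des was at -0.0469 and Pdgfrb at -0.0684. With edgeR, Vim was at 0.0538 and Tgfb1 at 0.0551, and with DESeq2 at 0.0546 and 0.0545. With 1 mouse left out, Des ranged from -0.094 to 0.245, Vim from -0.20 to 0.23, Pdgfrb from -0.0938 to 0.16, Hgf from -0.23 to 0.10 and Tgfb1 from -0.24 to 0.16.

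Over all genes, 590 were called (286 higher, 304 lower). The count was 894 (435 and 459) without a filter, where more genes are tested, and 990 (506 and 484) without a fold threshold. Equal totals gave 122 higher and 602 lower, and each gene's own variance gave 197 lower. With 1 mouse left out the counts ran from 373 (without control replicate 2) to 943 (without AF1 peptide replicate 1), with 201 to 457 higher and 172 to 486 lower. In the related lists 4 genes were called, 7 with equal totals and 2 to 13 with 1 mouse left out (2 without control replicate 2, 8 without control replicate 1 or AF1 peptide replicate 1, 9 without AF1 peptide replicate 2, 13 without AF1 peptide replicate 3 and 7 without AF1 peptide replicate 4). Of 36 pairs of markers, 0 had a correlation with an adjusted p value under 0.05, 8 as deviations from the group means and 0 to 3 with 1 mouse left out. The difference between activated and quiescent markers ranged from -0.01 to 0.16. Except where fewer genes or mice entered by construction, the cause was not tested.

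The groups share replicate numbers, although every library is from a different mouse. Over all genes tested, deviations of same-numbered mice from their group means had correlations of 0.235, 0.0238, 0.216 and -0.064. Their mean was 0.103, against -0.0342 for mice of different number. These correlations cannot show whether a shared number means anything more, and this was not tested. With the replicate number as a block, 0 of 9 markers and 733 genes (341 higher, 392 lower) were called, and no call of a marker changed. The fewest reads behind a marker were 53, for Acta2.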
